A study of Mus musculus with 7 samples.

Results

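Prox1, Nr2f1, Nr2f2, Sp8, Npas1, Npas3 and Adarb2 are 7 genes associated with cortical interneurons that are born in the caudal ganglionic eminence, and they were taken by name as 7 of the 25870 genes with a column in the single-nucleus count tables. Their RNA was followed across cell types of the mouse visual cortex, and the chromatin regions around them were followed in 3 classes of purified interneuron nuclei, where 361 regions of the accessibility table lay in or within 50 kb of 1 of the genes. The rule for the members used their names and no measured value, but they were named with earlier results of these data known.

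Cortical GABAergic interneurons arise outside the cortex, mainly in the medial and the caudal ganglionic eminences of the ventral forebrain, and migrate into it. The medial eminence gives the cells that express somatostatin (Sst) or parvalbumin (Pvalb), while the caudal eminence gives the cells that express vasoactive intestinal peptide (Vip) and many of the cells of the outer layers, among them neurogliaform cells that express Npy. Prox1 is a homeodomain factor that cells of caudal origin need for their migration and maturation, Nr2f1 and Nr2f2 are orphan nuclear receptors also known as COUP-TFI and COUP-TFII, Sp8 is a zinc finger factor, Npas1 and Npas3 are factors of the bHLH-PAS family, and Adarb2 is a brain RNA-binding protein of the ADAR family with no known editing activity.

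The study screened gene regulatory elements carried by AAV9 for activity restricted to somatostatin interneurons. Its RNA sample, V1_PESCA, was made of nuclei from the V1 visual cortex of C57BL/6J mice aged 6 to 10 weeks that had been injected with the virus library, captured with inDrops and sequenced as 10 libraries, 5 from each of 2 mice. Its accessibility samples, by ATAC-seq, were nuclei of whole cortex from uninjected mice aged 6 to 12 weeks, purified with an antibody to GFP from crosses of the nuclear membrane reporter SUN1-2xsfGFP-6xMYC with Pv-Cre (PV), Vip-IRES-Cre (VIP) or Sst-IRES-Cre (SST), with 2 samples of each. A Cre line marks every cell that has expressed its driver, so each purified class can hold subtypes, and the 2 samples of a class were independent experiments on the nuclei of 1 animal each. The names of the libraries fall in 2 sets of 5, the number from each mouse, but no label ties a set to a mouse.

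Nuclei with more than 200 non-viral UMIs (unique molecular identifiers, each counting 1 captured RNA molecule) numbered 31896, with a median of 713 UMIs, and 2448 to 3555 of them came from each library. A nucleus was placed in a cell type, called a gate, by 2 or more UMIs of that type's markers. Interneuron gates also needed an inhibitory marker UMI and fewer than 2 of the excitatory and of each glial or vascular list. The Vip, Sst and Pvalb gates had fewer than 2 UMIs of each other's marker but any number of Npy or Lamp5. The Npy and Lamp5 gates had no Sst, Vip or Pvalb UMI. The other inhibitory gate had 2 or more inhibitory marker UMIs, no Sst, Vip, Pvalb or Npy UMI and fewer than 2 of Lamp5. Excitatory, glial and vascular gates had no inhibitory UMI and fewer than 2 of each other's lists. In all 8845 nuclei had a gate, of which 302 were in the Vip gate, 287 in the Npy gate, 591 in the Sst gate and 249 in the Pvalb gate. None of the 7 genes was used to gate. Markers that were not used for gating summed to 49.6 UMIs per 10000 in the Vip gate for the Vip list against 3.64 in the Npy gate, 15.6 in the Sst gate for the Sst list and 20.9 in the Pvalb gate for the Pvalb list. Other gates were less well set apart by such markers, and their names stand for the rule only. The list for Npy and Lamp5 nuclei (Ndnf, Reln, Cplx3, Id2 and Cxcl14) summed to 10.0 in the Npy gate and 3.77 in the Lamp5 gate, but to 18.5 in the Vip gate, 12.4 in astrocytes and 3.16 in excitatory nuclei, and the Npy gate held the Pvalb list at 9.40. The mural gate of 61 nuclei held the endothelial list at 14.9 and its own at 9.62, against 39.7 and 1.53 in the endothelial gate. The excitatory list stood at 5.04 in the Sst gate and 6.58 in the excitatory gate. The ATAC samples held 1801883 to 2256073 reads in regions, and both tested regions near Vip were higher in VIP, while 2 of 4 near Sst were higher and 2 of 8 near Pvalb lower in SST than in PV.

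The regions the accessibility results turn on are shown first, so that their sequence can be set beside the read counts given further on. Each is 300 bases around the stronger VIP peak in the region with the lowest p of its gene, read on the + strand of GRCm38, except that for Adarb2 the RefSeq promoter is shown, because the only Adarb2 region that could be tested lay there. Capitals mark matches on either strand to 4 motifs: AGGTCA (a nuclear receptor half-site, TGACCT on the other strand), GGGCGG (the GC box of Sp factors, CCGCCC on the other strand), ACGTG (a bHLH-PAS core, CACGT on the other strand) and TAATTA (a homeodomain core, the same on both strands).
Prox1 intron, chr1:190137953-190138252: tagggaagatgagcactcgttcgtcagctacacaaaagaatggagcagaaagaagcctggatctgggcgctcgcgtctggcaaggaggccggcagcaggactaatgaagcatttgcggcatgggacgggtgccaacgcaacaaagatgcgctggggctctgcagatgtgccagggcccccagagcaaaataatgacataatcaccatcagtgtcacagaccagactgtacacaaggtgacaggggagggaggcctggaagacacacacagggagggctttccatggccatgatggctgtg
Nr2f1 downstream, chr13:78179411-78179710: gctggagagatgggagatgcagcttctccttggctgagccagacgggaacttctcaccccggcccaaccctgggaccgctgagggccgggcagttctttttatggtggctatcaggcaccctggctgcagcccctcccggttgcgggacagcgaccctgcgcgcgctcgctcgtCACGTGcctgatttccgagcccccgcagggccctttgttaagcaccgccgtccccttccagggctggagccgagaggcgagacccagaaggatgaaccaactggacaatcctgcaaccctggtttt
Nr2f2 upstream, chr7:70381812-70382111: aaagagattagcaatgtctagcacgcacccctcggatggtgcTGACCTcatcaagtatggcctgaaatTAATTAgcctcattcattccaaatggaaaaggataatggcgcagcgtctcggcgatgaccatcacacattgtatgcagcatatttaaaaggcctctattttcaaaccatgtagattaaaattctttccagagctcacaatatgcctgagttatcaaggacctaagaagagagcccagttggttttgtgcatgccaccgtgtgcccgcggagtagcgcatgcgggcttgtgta
Sp8 intron, chr12:118846971-118847270: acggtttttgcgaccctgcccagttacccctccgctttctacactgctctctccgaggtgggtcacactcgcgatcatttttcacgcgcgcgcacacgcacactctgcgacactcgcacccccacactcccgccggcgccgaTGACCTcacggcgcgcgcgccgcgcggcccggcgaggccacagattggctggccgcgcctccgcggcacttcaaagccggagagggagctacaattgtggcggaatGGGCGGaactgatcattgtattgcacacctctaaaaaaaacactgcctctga
Npas3 intron, chr12:53759082-53759381: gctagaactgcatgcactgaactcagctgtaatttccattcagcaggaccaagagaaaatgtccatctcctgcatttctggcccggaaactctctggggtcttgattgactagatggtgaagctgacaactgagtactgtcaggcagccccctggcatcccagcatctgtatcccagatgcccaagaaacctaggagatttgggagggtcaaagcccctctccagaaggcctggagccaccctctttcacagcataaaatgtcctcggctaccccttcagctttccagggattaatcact
Adarb2 promoter, chr13:8202616-8202915: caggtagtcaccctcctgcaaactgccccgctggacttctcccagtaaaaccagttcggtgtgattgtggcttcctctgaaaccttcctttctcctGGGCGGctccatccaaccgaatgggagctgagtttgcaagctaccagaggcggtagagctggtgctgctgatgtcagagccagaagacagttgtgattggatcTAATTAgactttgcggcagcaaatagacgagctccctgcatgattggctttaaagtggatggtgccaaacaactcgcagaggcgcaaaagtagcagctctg

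The Nr2f1 window shown was the region with the lowest p among those higher in VIP, since the region with the lowest p of all near that gene was lower there. Its palindrome counts as 2 overlapping matches to the bHLH-PAS core. The Nr2f2 window held 1 half-site and 1 homeodomain core, the Sp8 window 1 half-site and 1 GC box, the Adarb2 promoter 1 GC box and 1 homeodomain core, and the Prox1 and Npas3 windows had no match. Among 50006 windows of the same length around the peaks of VIP replicate 2, the half-site was found in 13.6%, the GC box in 26.2%, the bHLH-PAS core in 20.7% and the homeodomain core in 5.18%. Among 32841 RefSeq promoters (GRCm38.p6) the shares were 16.3%, 35.7%, 19.6% and 5.29%. The G and C content was 64.0% in the Nr2f1 window, 62.7% in the Sp8 window, 56.0% in the Prox1 window, 51.3% in the Npas3 window and 46.0% in the Nr2f2 window, with a median of 54.0% over the VIP peak windows. These matches describe letters only. No window is shown for Npas1, whose 1 region higher in VIP lies over an exon, since windows were taken outside exons.

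The first question was in which cell types each gene's RNA was found. In the Vip gate 6 of the 7 genes were at least 2-fold above the mean of the Sst and Pvalb gates and none was at least 2-fold below it, where 8.37% of the 11073 genes with at least 10 UMIs over the 4 gates were higher by that rule and 15.5% were lower. The remaining gene, Nr2f1, was 0.81 higher on the log2 scale. Differences from the mean of Sst and Pvalb were 8.79 for Prox1 (on 1 UMI in Sst and 0 in Pvalb, and 8.44 with an interval of 5.92 to 13.76 with these gates pooled), 5.23 for Adarb2, 3.74 for Nr2f2, 1.91 for Npas1, 1.85 for Npas3 and at least 3.01 for Sp8, all in log2 units. Here and below, a value given as at least takes an empty gate at 3 UMIs and the other count as exact. The 95% intervals of such ratios reach below it. The median over the 7 genes, with Sp8 at its bound, was 3.01 and the median over the 11073 genes was -0.12. With the library sets taken apart, the differences for Vip were above 0 for 7 of 7 genes in both sets, at 5.07 and 5.57 for Adarb2, 3.60 and 3.88 for Nr2f2, 0.79 and 0.87 for Nr2f1, 1.53 and 2.40 for Npas1 and 2.04 and 1.26 for Npas3, at least 1.30 and 2.53 for Sp8, and for Prox1 at least 3.89 in set 1, with 8.21 on 1 UMI in set 2. The nuclei are labelled as 1 sample and no test between gates was run. The intervals below cover counting error only, and where several UMIs of a gene sat in the same nucleus, as with the 75 Nr2f2 UMIs in 41 Vip nuclei, they are too narrow.

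Prox1 RNA was found in the Vip and Npy gates and hardly at all in the Sst and Pvalb gates. In the Vip gate it stood at 3.44 UMIs per 10000 (86 UMIs, 95% exact Poisson interval 2.76 to 4.25), with 1.30 in the lowest library, a median of 2.75 and 8.39 in the highest, and every library had some. In the Npy gate it stood at 0.944 (27 UMIs, interval 0.622 to 1.37), with 0.316 to 1.84 over the 10 libraries. The Sst gate had 1 UMI in 591 nuclei and the Pvalb gate none in 249. The Vip level was therefore 221.9 times the Sst level, with a wide interval of 38.8 to 8865 because it rests on that 1 UMI. It was 41.7 times the Pvalb level taken at a limit of 3 UMIs, with an exact interval from 33.2. Between the Vip and Npy gates the ratio was 3.65 (interval 2.34 to 5.85), and Vip was the higher in 10 of 10 libraries, although the libraries of the 2 gates overlapped in range. The library at 8.39 stood apart from the other 9, and without it the Vip level was 2.95 (interval 2.29 to 3.75). The 2 library sets gave 2.48 and 4.35.

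Outside the neurons, Prox1 RNA was also found in the oligodendrocyte gate, at 1.79 per 10000 (124 UMIs, interval 1.49 to 2.13) and 0.739 to 3.97 over the libraries. That was 0.518 of the Vip level (interval 0.391 to 0.691), and the oligodendrocyte gate was the higher in 1 of 10 libraries. Excitatory nuclei had 8 UMIs, a level of 0.0216, and the oligodendrocyte level was 82.5 times theirs (interval 40.6 to 195.4). Oligodendrocyte precursors (OPC gate) had 2 UMIs, 0.164 per 10000. In the order of the 13 gates, Vip differed from oligodendrocyte, oligodendrocyte from Npy and Npy from other inhibitory nuclei beyond counting error, and so did astrocytes at 0.101 from excitatory nuclei, while the gates between and below these did not. Barcodes with 200 or fewer UMIs, which hold RNA free in the suspension and shallow nuclei, had 0.268 per 10000, above the level of 10 of the 13 gates.

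An antisense gene on the opposite strand, Prox1os (chr1:190170296-190217276), overlaps the start of Prox1 and has a column of its own. It had 10 UMIs in the Vip gate, 0.400 per 10000 (interval 0.192 to 0.737), 9 in the oligodendrocyte gate, 1 in excitatory nuclei and none in the Npy, Sst and Pvalb gates. Whether reads were counted by strand is not given in the sources used here, so reads of the 2 genes cannot be told apart where they overlap.

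**Figure D1:**
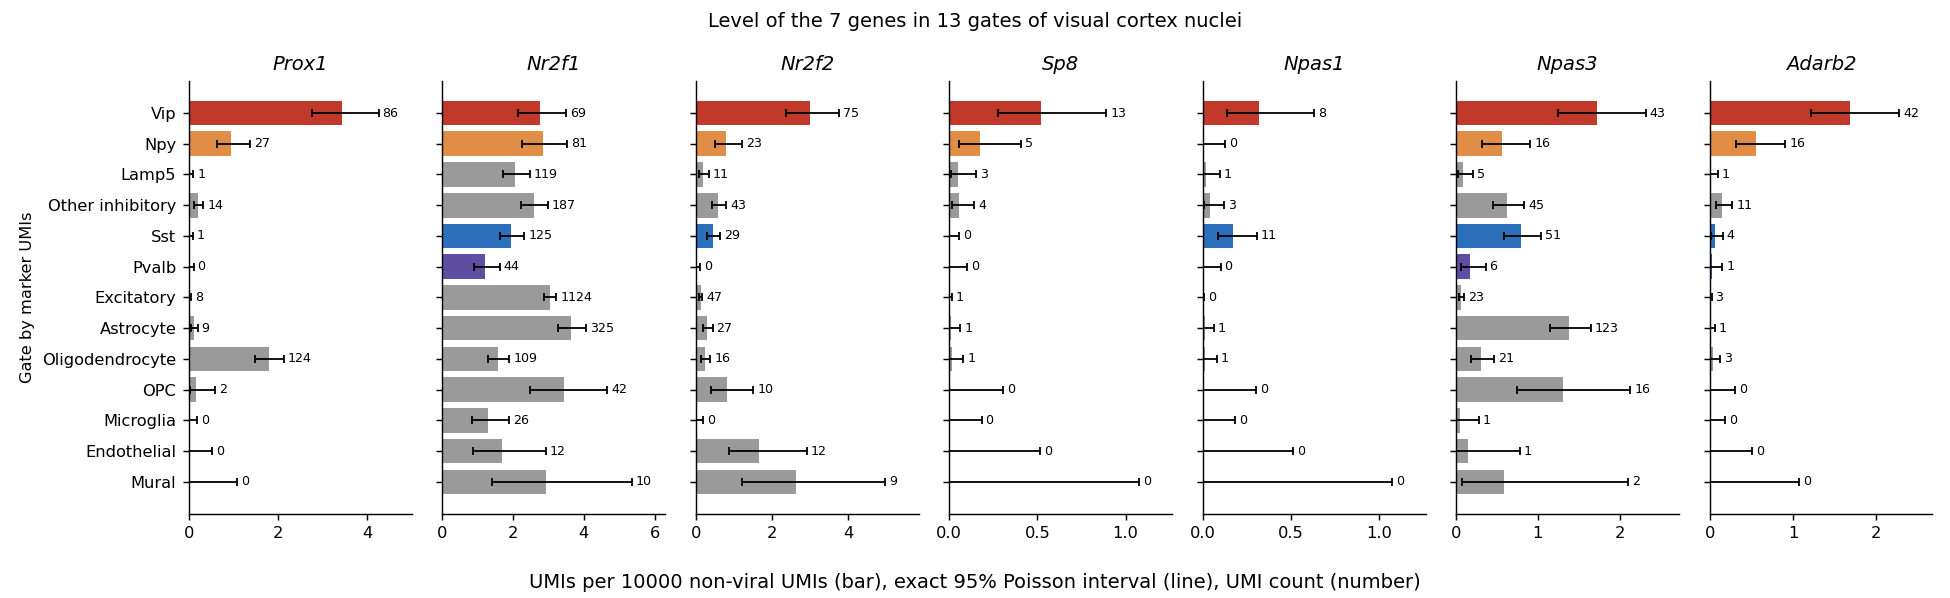
Level of each of the 7 genes in 13 gates of nuclei, in UMIs per 10000 non-viral UMIs summed over the gate; error bars are 95% exact Poisson intervals and the number at each bar is the UMIs it rests on. Prox1, Nr2f2, Sp8, Npas1, Npas3 and Adarb2 are highest in the Vip gate, Nr2f1 is spread over all gates and Prox1 has its next highest bar, 1.79, in oligodendrocytes.

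The nuclear receptors Nr2f1 and Nr2f2 differ little in the DNA they bind, and their RNA was distributed very differently. Nr2f1 UMIs were found in every gate, from 1.21 per 10000 in the Pvalb gate (44 UMIs, interval 0.880 to 1.63) to 3.64 in astrocytes (325 UMIs, interval 3.26 to 4.06). The Vip gate stood at 2.76 (69 UMIs, interval 2.15 to 3.50), with 1.65 in the lowest library, a median of 2.44 and 4.85 in the highest. Excitatory nuclei stood at 3.04 (1124 UMIs, interval 2.86 to 3.22) with 2.53 to 3.55 over the libraries. No gate differed from the next in the order beyond counting error, and the difference lay between the ends of the order. Barcodes of 200 or fewer UMIs, called small barcodes below, held 3.15 per 10000, above the level of 11 of the 13 gates, so a level in a gate does not by itself show expression there.

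Among interneurons Nr2f1 was lowest in the Pvalb gate. The Vip level was 2.28 times the Pvalb level (interval 1.54 to 3.41, higher in 9 of 10 libraries), and the Npy level, 2.83, was 2.34 times it (interval 1.60 to 3.46, 9 of 10 libraries). Vip and Npy did not differ beyond counting error, at a ratio of 0.976 (interval 0.697 to 1.36), and neither did Vip and excitatory nuclei, at 0.909 (interval 0.702 to 1.16). Excitatory nuclei were 1.57 times the Sst gate (interval 1.30 to 1.90) and 2.51 times the Pvalb gate (interval 1.86 to 3.47), each in 10 of 10 libraries. Vip was 1.42 times the Sst gate (interval 1.05 to 1.93), the higher in only 6 of 10 libraries. The Sst level of 1.94 was 1.60 times the Pvalb level (interval 1.13 to 2.31), and this ratio depended on the library set, at 1.34 in log2 units in set 1 and 0.18 in set 2. Nr2f1 has an antisense neighbour with a column too, A830082K12Rik, whose level was 0.240 in Vip, 0.248 in Sst and 0.249 in excitatory nuclei.

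Nr2f2 was less evenly spread. In the Vip gate it stood at 3.00 per 10000 (75 UMIs, interval 2.36 to 3.77), with 0.441 in the lowest library, a median of 3.34 and 6.08 in the highest. In the Sst gate it stood at 0.450 (29 UMIs, interval 0.301 to 0.646), with 0 to 0.951 over the libraries, and the Pvalb gate had none. The small barcodes held 0.268 (interval 0.198 to 0.356), which overlaps the interval of the Sst gate. The Vip level was 6.67 times the Sst level (interval 4.29 to 10.6, higher in 9 of 10 libraries) and 3.74 times the Npy level (interval 2.32 to 6.25, 8 of 10 libraries). It was 36.4 times the Pvalb level taken at 3 UMIs, with an exact interval from 28.85. The lowest Vip library lay within the Sst range, so the library ranges of these gates overlapped. The Npy level of 0.804 (23 UMIs, interval 0.510 to 1.21) held 1 library at 3.26 far above the others, and without it the level was 0.574 (interval 0.321 to 0.946).

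Gates of vascular nuclei also held RNA of Nr2f2, a factor known from venous endothelium. The mural gate, in which the endothelial markers exceeded the mural ones, stood at 2.62 (9 UMIs, interval 1.20 to 4.98), 20.6 times excitatory nuclei (interval 8.89 to 42.6), and endothelial nuclei at 1.67 (12 UMIs), 13.2 times excitatory nuclei (interval 6.35 to 25.2). The Vip and mural levels, and the mural and endothelial levels, did not differ beyond counting error. Of the neighbours in the order of gates, only excitatory nuclei at 0.127 and the Pvalb gate at 0 were apart.

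Within the Sst gate, Nr2f2 was divided by Npy. The 242 Sst nuclei without an Npy UMI had 1.06 per 10000 (24 UMIs, interval 0.678 to 1.58), and the 349 with one had 0.120 (5 UMIs, interval 0.0389 to 0.280), a ratio of 8.84 (interval 3.31 to 29.7). Both library sets showed it, at 1.03 against 0.240 in set 1 and 1.08 against 0 in set 2. Nuclei with Npy had the greater depth, with a median of 1074 UMIs against 802.5, so the lower level was in the deeper nuclei, and it lay below the 0.268 of the small barcodes.

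**Figure D2:**
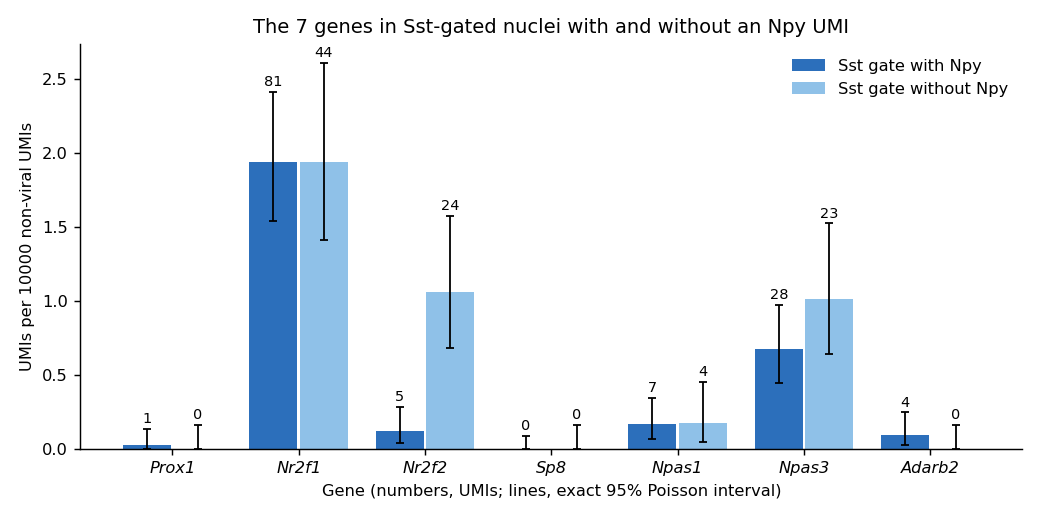
Levels of the 7 genes, in UMIs per 10000 non-viral UMIs, in Sst-gated nuclei with and without an Npy UMI, with 95% exact Poisson intervals. Nr2f2 stands at 1.06 in the nuclei without Npy and at 0.120 in those with Npy.

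Sp8 is the zinc finger factor of the group, and its RNA was sparse. The Vip gate had 13 UMIs in 8 nuclei, a level of 0.521 per 10000 (interval 0.277 to 0.890), with 0 in the lowest library, a median of 0.545 and 1.32 in the highest. The Npy gate had 5 UMIs, 0.175 per 10000, in 3 libraries, and the Sst and Pvalb gates had none. With the empty gates taken at 3 UMIs, the Vip level was 11.2 times the Sst level (interval from 7.86) and 6.30 times the Pvalb level (interval from 4.43). It was 2.98 times the Npy level with an interval of 0.997 to 10.7 that did not leave out 1. Excitatory nuclei had 1 UMI in 2826 nuclei, and the Vip level was 192.5 times theirs (interval 28.9 to 8182). No gate was apart from the next in order. The small barcodes held 0.0391 per 10000 of Sp8, 0.0279 of Npas1 and 0.235 of Npas3.

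The bHLH-PAS factors Npas1 and Npas3 were found in both Vip and Sst nuclei. Npas1 stood at 0.320 in the Vip gate (8 UMIs, interval 0.138 to 0.631), with 0 to 0.883 over the libraries, and at 0.171 in the Sst gate (11 UMIs, interval 0.0852 to 0.306), with 0 to 0.452. The Vip to Sst ratio of 1.88 had an interval of 0.655 to 5.12, so a difference was not detectable at this depth. The Npy, Pvalb and excitatory gates had none, and the Vip level was at least 3.06, 3.88 and 39.5 times theirs. The Sst level was at least 2.07 times that of Pvalb and at least 21.1 times that of excitatory nuclei, and the Sst gate was the only gate apart from the next in order, other inhibitory nuclei at 0.0414.

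Npas3 stood at 1.72 in the Vip gate (43 UMIs, interval 1.25 to 2.32), with 0.435 in the lowest library, a median of 1.33 and 4.13 in the highest. The Sst gate stood at 0.792 (51 UMIs, interval 0.589 to 1.04), the Npy gate at 0.559 (16 UMIs) and the Pvalb gate at 0.165 (6 UMIs). The Vip level was 2.18 times the Sst level (interval 1.42 to 3.33, 7 of 10 libraries), 3.08 times the Npy level (interval 1.70 to 5.86) and 10.4 times the Pvalb level (interval 4.42 to 30.0), the last 2 in 9 of 10 libraries each. The Sst level was 4.79 times the Pvalb level (interval 2.06 to 13.7, 9 of 10 libraries). Library set 1 gave the Vip gate 2.56 and set 2 gave it 0.932, so the Vip level moved with the set.

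Npas3 was also found in glia. Astrocytes stood at 1.38 (123 UMIs) and OPC at 1.31 (16 UMIs), and the ratio of Vip to astrocytes was 1.25 with an interval of 0.861 to 1.78. Excitatory nuclei stood at 0.0622 (23 UMIs), and astrocytes were 22.2 times that (interval 14.1 to 36.3, higher in 10 of 10 libraries). For Nr2f1, by contrast, astrocytes stood at 1.20 times excitatory nuclei (interval 1.06 to 1.36, 8 of 10 libraries).

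Adarb2, the RNA-binding protein, was found, like Prox1, in the Vip and Npy gates. The Vip gate stood at 1.68 (42 UMIs, interval 1.21 to 2.27), with 0 in the lowest library, a median of 1.58 and 3.60 in the highest, and the Npy gate at 0.559 (16 UMIs, interval 0.320 to 0.908). The Sst gate had 4 UMIs, the Pvalb gate 1, excitatory nuclei 3 and oligodendrocytes 3, and 0.0621 in Sst was under the 0.0894 of the small barcodes. The Vip level was 27.1 times the Sst level (interval 9.83 to 104.0, 9 of 10 libraries), 61.1 times the Pvalb level (interval 10.4 to 2469) and 3.01 times the Npy level (interval 1.66 to 5.73, 8 of 10 libraries). The Npy level was 9.01 times the Sst level (interval 2.91 to 37.0, 7 of 10 libraries). In the order of gates, Vip was apart from Npy and Npy from other inhibitory nuclei.

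**Figure D3:**
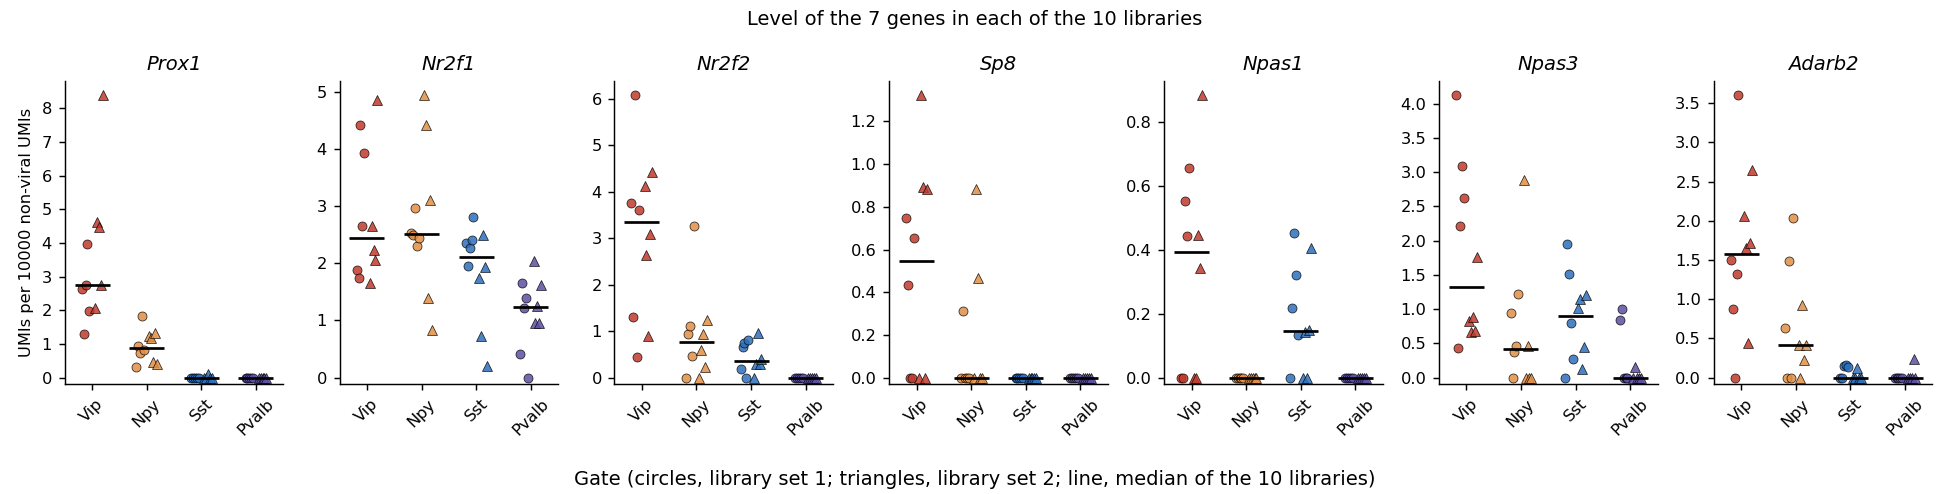
Level of each gene in each of the 10 libraries, in UMIs per 10000 non-viral UMIs, for the Vip, Npy, Sst and Pvalb gates; circles are libraries of set 1, triangles of set 2 and lines are medians. The Prox1 point at 8.39 in the Vip gate and the Nr2f2 point at 3.26 in the Npy gate stand far from the other libraries.

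In the Npy gate 4 of the 7 genes were at least 2-fold above the mean of Sst and Pvalb, where 7.99% of the 11073 genes were higher by that rule and 10.8% lower. These were Prox1 (6.93 in log2 units, and 6.57 with an interval of 3.97 to 11.93 with Sst and Pvalb pooled), Adarb2 (3.64), Nr2f2 (1.84) and Sp8 (at least 1.44). With nuclei weighted equally and thinned to 300 UMIs, Nr2f2 was at 0.98 and 0.94 and the bound for Sp8 at 0.93 and 0.98, all under 2-fold. Of the others, Nr2f1 stood at 0.85, Npas3 at 0.23 and Npas1 had no UMI. Between the 2 gates of medial origin, 4 of the 7 were at least 2-fold higher in Sst than in Pvalb, where 11.8% of genes were higher and 8.45% lower. These were Nr2f2 (at least 2.45), Npas3 (2.26), Adarb2 (1.17, on 4 UMIs against 1) and Npas1 (at least 1.05, a bound that fell to -0.04 and -0.11 within the library sets), and Nr2f1 stood at 0.68. As ratios, the exact intervals began under 2-fold for Npas1 (1.415) and Adarb2 (0.223) and above it for Nr2f2 (4.16) and Npas3 (2.06). Prox1 and Sp8 were too sparse in both gates for a fold.

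Detection per nucleus was low. Prox1 had a UMI in 20.9% of Vip nuclei (63 of 302, exact interval 16.4 to 25.9) against 0.283% of excitatory nuclei, which had the greater depth, with a median of 1188 UMIs against 716. With every nucleus thinned to 300 UMIs the shares were 9.92% and 0.0615%. Nr2f2 had a UMI in 13.6% of Vip and 1.52% of excitatory nuclei, and Adarb2 in 9.60% and 0.106%. Leaving aside Nr2f1, 175 of 302 Vip nuclei had no UMI of any member, 94 had 1 member, 24 had 2 and 9 had 3 or more. No member was found in 234 of 287 Npy, 518 of 591 Sst, 244 of 249 Pvalb and 2751 of 2826 excitatory nuclei. At this depth absence of a UMI in a nucleus does not show absence of the RNA.

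Vip interneurons hold several known types, among them small basket cells that express Cck and bipolar cells that express Calb2, and the members were not even between nuclei split by such markers. In the 79 Vip nuclei with a Cck UMI, Nr2f1 stood at 4.53 against 1.83 in the 223 without, a ratio of 2.47 (interval 1.49 to 4.11), and Nr2f2 at 4.41 against 2.26, a ratio of 1.95 (interval 1.21 to 3.15). Cck itself stood at 10.93 per 10000 in the Vip gate and 11.75 in excitatory nuclei, so 1 Cck UMI need not mark a basket cell. Whether such UMIs came from RNA free in the suspension was not tested. In the 58 nuclei with a Calb2 UMI, Adarb2 stood at 2.98 against 1.30, a ratio of 2.30 (interval 1.17 to 4.43), while for Nr2f2 the ratio was 0.520 (interval 0.238 to 1.02). Prox1 differed by neither split beyond counting error, at ratios of 0.823 (interval 0.498 to 1.32) by Cck and 1.39 (interval 0.834 to 2.24) by Calb2. Library sets 1 and 2 gave ratios of 3.56 and 1.74 for Nr2f1 and 2.56 and 1.53 for Nr2f2 by Cck, and 2.51 and 2.18 for Adarb2 by Calb2. For Prox1 the sets differed in the other splits of the Vip gate. The 53 nuclei with an Npy2r UMI had 5.53 against 2.89 (interval of the ratio 1.18 to 3.04), at a ratio of 0.900 in set 1 and 2.42 in set 2. The 130 nuclei with a Crh UMI had 2.51 against 4.24 (ratio 0.593, interval 0.365 to 0.943), at 0.978 in set 1 and 0.459 in set 2. Both Prox1 differences thus lay in set 2, which holds the library that stood apart. In the Npy2r split the intervals for Nr2f2, Sp8 and Npas3 also left out 1, and those for Nr2f1, Npas1 and Adarb2 did not. The ratio was 2.24 for Nr2f2 (3.21 in set 1 and 1.61 in set 2). It was 4.39 for Sp8 on 7 and 6 UMIs (6.75 and 3.23). For Npas3 it was 2.23, with 3.71 in set 1 and 0.645 in set 2. Within the Npy gate, Nr2f2 stood at 1.90 in the 33 nuclei with a UMI of Ndnf, a neurogliaform marker, against 0.615 without (8 and 15 UMIs, ratio 3.10, interval 1.14 to 7.78). These 5 splits were chosen after values were known, and 9 of their 34 ratios had intervals that left out 1. Nuclei with the marker were deeper, with medians of 852 against 664 UMIs for Cck, 874.5 against 682.5 for Calb2 and 810 against 686 for Npy2r, and the part of depth was not tested.

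Other genes known from the 2 lineages were also divided by gate, but the lists are not independent of the gate check above. The caudal list holds all of the Vip, Npy and Lamp5 check markers, and the medial list all of the Sst and Pvalb ones. The counts and the examples below thus in part repeat that check. Of 17 measured genes of a caudal list, 13 were at least 2-fold higher in Vip than the mean of Sst and Pvalb and none lower, with a median of 3.19 in log2 units, beside 8.37% of all genes higher and 15.5% lower. Examples are Htr3a, the serotonin receptor of these cells (4.93 per 10000 in Vip, 0.0466 in Sst, 0 in Pvalb), and Cxcl14, a chemokine (17.0, 0.0621 and 0.0551). Of 10 measured genes of a medial list, none was higher and 8 were lower, with a median of -2.37, among them Lhx6, the homeodomain factor of medial cells, with no UMI in Vip against 0.807 in Sst and 0.551 in Pvalb. Of 7 genes shared by GABAergic cells, 2 were higher and 1 lower, with a median of 0.49. In the Npy gate 9 caudal genes were higher and 2 lower, and 6 medial genes were lower and none higher, beside 7.99% of all genes higher and 10.8% lower.

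Genes whose levels over the 13 gates were most like a member's were named by Pearson's r of log2(level + 0.05) over 7902 genes, and r is a description over 13 gates that share libraries. Prox1 was most like Ndc1 (0.883), Usf2 (0.811) and Gpd1 (0.809), the genes most like Nr2f1 included Cdh2 (0.865) and Atp1b2 (0.858), Nr2f2 was most like Car4 (0.875), Abcc1 (0.863) and Snx11 (0.826), and Npas3 was most like Herpud2 (0.874), Canx (0.853) and Tmem106b (0.849). The other 3 members had fewer than 200 UMIs over the gates. Among the members themselves r ran from 0.259 to 0.630.

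The next question was whether chromatin near the genes differed between purified VIP nuclei and the mean of SST and PV nuclei. Of the 361 regions 39 had enough reads to be tested, and 19 of these were higher and 6 lower in VIP by edgeR's quasi-likelihood test at a Benjamini-Hochberg adjusted p under 0.05, where 24.9% of the 40338 regions tested were higher and 24.0% lower. The median difference was 0.56 in log2 units over the 39 regions and -0.05 over all tested. A region could pass the filter on reads through the VIP samples alone, so these counts are descriptions. With no filter 345 of the regions could be tested, with 25 higher and 1 lower, where 3.46% of the 310118 regions in that fit were higher and 0.963% lower. The 6 lower regions became 2 in DESeq2 and 3 without VIP replicate 2. Both VIP samples lay above all 4 others in 20 of the 39 regions and below them in 6. In such bulk samples fewer cells of a subtype and less open chromatin per cell cannot be told apart.

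By gene, all 4 tested regions near Nr2f2, all 3 near Sp8 and 7 of 10 near Prox1 were higher in VIP and none lower, and 1 of 4 was higher near Npas1. The Npas1 regions tested include chr7:16405425-16406511, within the gene Zc3h4, and chr7:16452525-16453422, over the start of Tmem160, and neither was called. The latter is counted below as outside the genes, since place was taken by the 7 members alone. Nr2f2 had 13 regions in all, Sp8 8, Prox1 30 and Npas1 28, and the filter could admit a region on VIP reads alone. An Sp8 region so admitted had 2 and 1 reads in PV, 13 and 15 in VIP, and 1 and 1 in SST. Such a region could hardly be called lower, so the counts by gene too are descriptions. Near Nr2f1, 2 of 9 were higher and 3 lower, near Npas3 2 of 8 were higher and 2 lower, and near Adarb2 the 1 region tested was lower. By place, 11 of 18 tested regions outside the genes were higher and 1 lower, 5 of 9 in introns were higher and 2 lower, 1 of 5 in exons away from a start was higher and 2 lower, and of 7 over an annotated transcript start 2 were higher and 1 lower. Over all tested regions the shares higher and lower were 20.0% and 17.3% at coding starts and 27.2% and 27.1% elsewhere. Regions near the caudal list were higher in 33 and lower in 15 of 86 tested, those near the medial list in 12 and 14 of 49, and those near the shared GABAergic list in 14 and 7 of 34. Of the 39 regions 13 overlapped another region of the table, and how reads in an overlap were counted is not given in the sources used here.

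**Figure D4:**
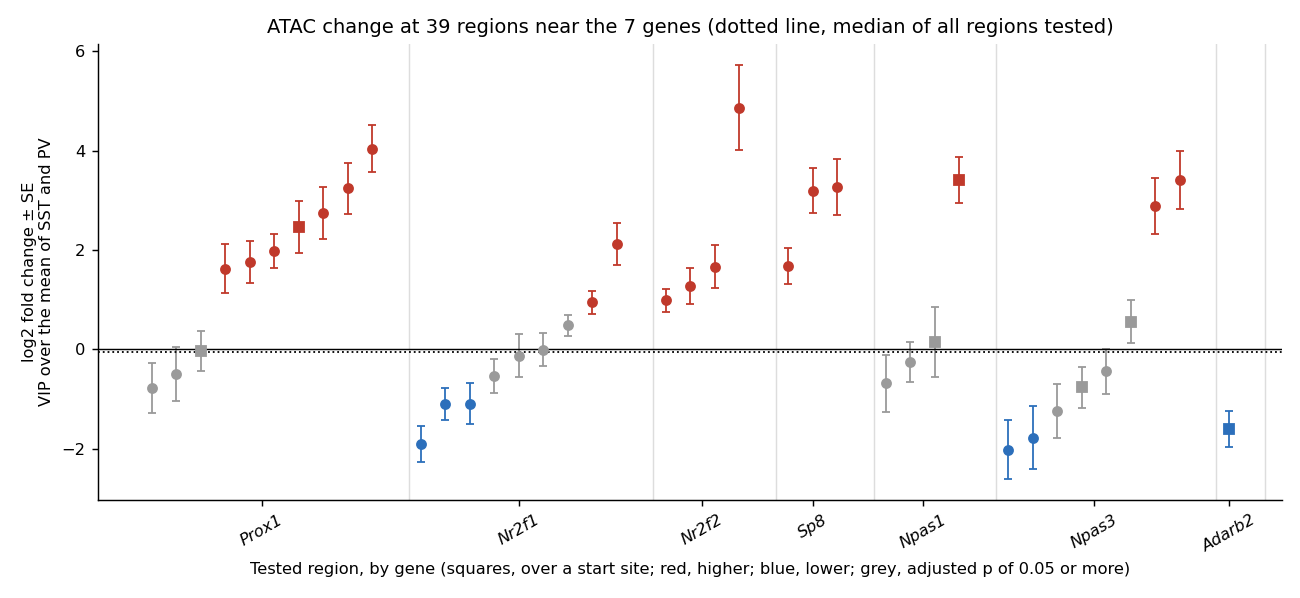
Difference between VIP and the mean of SST and PV, in log2 units with standard errors, for the 39 tested regions by gene; squares lie over a transcript start, red is higher, blue lower and grey has an adjusted p of 0.05 or more, and the dotted line is the median of all tested regions, -0.05. Every tested region of Nr2f2 and Sp8 lies above the line, and the Adarb2 region lies below it. A region could pass the filter on reads through the VIP samples alone.

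Prox1 lies at chr1:190118035-190170714 on the minus strand, and its region with the lowest p was in an intron, chr1:190137687-190138586, 32.6 kb into the gene. It had 2 and 1 reads in the PV samples, 44 and 36 in VIP, and 5 and 1 in SST. Both VIP samples were far above the other 4, and the difference was 4.03 ± 0.475 (log2, SE, n = 2 per class, edgeR adjusted p = 4.22e-06), with 3.67 to 4.85 over the alternatives and adjusted p from 1.79e-18 to 0.000356. The region over the main start, chr1:190170098-190170978, had 17 and 16 reads in PV, 17 and 19 in VIP, and 24 and 10 in SST. The classes overlapped there, with a difference of -0.04 ± 0.400 (edgeR adjusted p = 0.949), and a peak was listed over the start in PV and SST samples and in neither VIP sample. A region over another transcript start, chr1:190169016-190169673, named after its values were seen, lies 1.4 kb further in and had 1 and 6 reads in PV, 20 and 17 in VIP, and 3 and 2 in SST. In this region both VIP samples exceeded the other 4, by 2.47 ± 0.521 (log2, edgeR adjusted p = 0.000927), and peaks were listed in both VIP samples alone (−log10 q of 8.25 and 13.9). A region that overlaps this second one and the same VIP peaks, chr1:190168550-190169302, was not higher in VIP. It had 11 and 8 reads in PV, 9 and 4 in VIP, and 10 and 5 in SST (-0.49 ± 0.535, edgeR adjusted p = 0.460). The 2 start regions of Prox1 thus differed, one with like reads in all classes and the other higher in VIP.

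The most read region near Prox1, chr1:190174596-190175879, lay 4.5 kb before the start. It had 8 and 8 reads in PV, 35 and 47 in VIP, and 14 and 8 in SST, and both VIP samples were above the rest by 1.97 ± 0.346 (log2, edgeR adjusted p = 0.000196). Another, singled out after its values were seen because it lies in an exon and had a high conservation score (mean phyloP 2.42, where the median over the 361 regions was 0.131), was chr1:190161860-190162587. It had 2 and 2 reads in PV, 19 and 19 in VIP, and 2 and 1 in SST, a difference of 3.24 ± 0.505 (log2, edgeR adjusted p = 6.78e-05).

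Nr2f1 lies at chr13:78188973-78199757 on the minus strand, and its region with the lowest p, chr13:78199024-78199750, ended 7 bases short of the annotated start. It had 60 and 59 reads in PV, 18 and 10 in VIP, and 46 and 32 in SST. Here both VIP samples were below the other 4, by 1.90 ± 0.364 on the log2 scale (-1.90, edgeR adjusted p = 0.000421). The RNA level in the Vip gate was above that in Sst and Pvalb, but above Sst in only 6 of 10 libraries. That RNA level, 2.76 per 10000, was also below the 3.15 of the small barcodes. The most read region near the gene, chr13:78163397-78164138, lies within the gene Fam172a and had 185 and 151 reads in PV, 58 and 73 in VIP, and 139 and 51 in SST. VIP and SST overlapped, the difference was -1.10 ± 0.314 (edgeR adjusted p = 0.00813), and it was lost in DESeq2 (adjusted p = 0.139) and without the filter (0.284), with 3.96e-15 to 0.284 over the alternatives. A region that overlaps it, chr13:78162891-78163596, went the other way, with 50 and 39 reads in PV, 116 and 122 in VIP, and 49 and 96 in SST (0.95 ± 0.234, edgeR adjusted p = 0.00299).

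The Nr2f1 region whose sequence was shown, chr13:78179063-78180104, lies 20.2 kb from the start and past the end of the gene. It had 3 and 5 reads in PV, 29 and 24 in VIP, and 10 and 5 in SST, and both VIP samples were above the rest by 2.12 ± 0.427 (log2, edgeR adjusted p = 0.000625). Regions near Nr2f1 therefore differed in both directions.

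Nr2f2 lies at chr7:70351944-70366735 on the minus strand, and its region with the lowest p, chr7:70381568-70382329, is 15.2 kb before the start. It had 0 and 0 reads in PV, 21 and 17 in VIP, and 6 and 0 in SST. Both VIP samples were above the other 4, at 4.87 ± 0.861 (log2, edgeR adjusted p = 0.000246), a fitted value that depends on the 0 counts and ran from 4.35 to 7.22 over the alternatives, with adjusted p from 1.07e-10 to 0.145, the last in DESeq2. One SST sample had 6 reads and the other none. The most read region, in an intron at chr7:70361074-70362152, was open in every class, with 37 and 30 reads in PV, 80 and 95 in VIP, and 43 and 54 in SST, and listed as a peak in all 6 samples (−log10 q of 32.6 to 81.2). Both VIP samples were above the others by 0.99 ± 0.234 (log2, edgeR adjusted p = 0.00226).

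**Figure D5:**
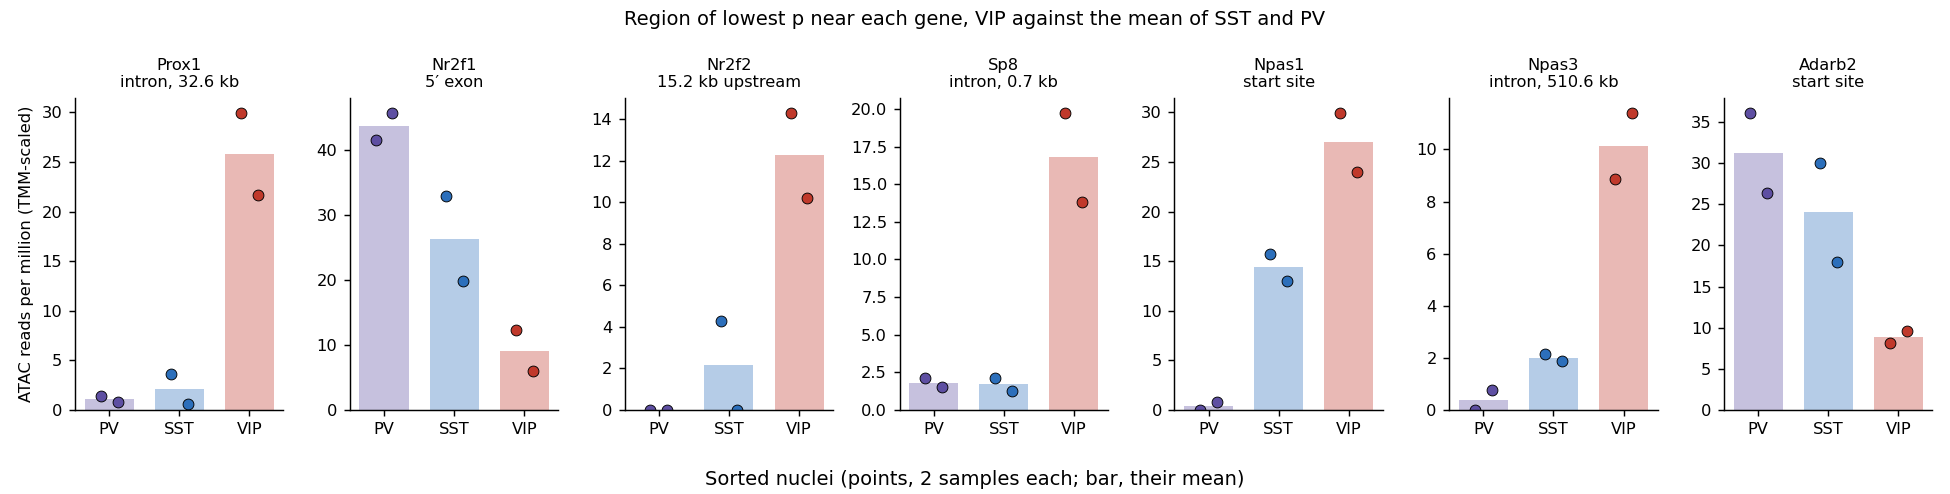
TMM-scaled CPM (read counts scaled to a common library size) in each of the 6 ATAC samples for the region with the lowest p of each gene; points are samples and bars are means of 2. The VIP samples lie above all others for Prox1, Nr2f2, Sp8, Npas1 and Npas3 and below them for Nr2f1 and Adarb2. Each region was chosen by its p for VIP against the mean of SST and PV, so the separation of VIP follows from the choice. A region could pass the filter on reads through the VIP samples alone.

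Sp8 is a short gene on the plus strand, chr12:118846329-118852576, and its region with the lowest p, chr12:118846621-118847455, is an intron in the GENCODE annotation where RefSeq lists a further Sp8 start (its promoter window is chr12:118846983-118847282). It had 3 and 2 reads in PV, 29 and 23 in VIP, and 3 and 2 in SST. Both VIP samples were above the rest, which had 2 or 3 reads each, by 3.20 ± 0.459 (log2, edgeR adjusted p = 3.12e-05). The most read region, chr12:118854800-118855649, had 9 and 16 reads in PV, 39 and 34 in VIP, and 10 and 7 in SST, a difference of 1.68 ± 0.360 (edgeR adjusted p = 0.00103).

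Npas1 lies at chr7:16455721-16477728 on the minus strand, and 1 region, chr7:16475549-16476263, had at once the lowest p, the most reads and a transcript start, 1.8 kb into the gene. It had 0 and 1 reads in PV, 44 and 40 in VIP, and 22 and 21 in SST. The 3 classes did not overlap: VIP was above the mean of the others by 3.40 ± 0.464 (log2, edgeR adjusted p = 1.88e-05), and SST was above PV by 5.00 ± 0.790 (edgeR adjusted p = 0.00241). The second difference rests on 0 and 1 PV reads, and its fitted value ran from 4.11 to 7.45 over the alternatives. It was lost without the filter on reads (edgeR adjusted p = 0.094). Npas1 RNA was likewise found in the Vip and Sst gates with none in Pvalb, while a difference between Vip and Sst was not detectable in the RNA. Another Npas1 start region, chr7:16476387-16477045, had 1 and 6 reads in PV, 12 and 2 in VIP, and 14 and 5 in SST, with overlapping classes (0.15 ± 0.700, edgeR adjusted p = 0.877). Near the 7 genes the first of these was the 1 region of 39 higher in SST than in PV, where 3.96% of all tested were higher and 4.33% lower.

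Npas3, a gene of 823499 bp at chr12:53248677-54072175 on the plus strand, had 135 regions, of which 8 could be tested. The one with the lowest p, chr12:53758932-53759571, lies in an intron 510.6 kb into the gene and had 0 and 1 reads in PV, 13 and 19 in VIP, and 3 and 3 in SST. Both VIP samples were above the rest by 3.41 ± 0.589 (log2, edgeR adjusted p = 0.000171). The region over the first annotated start of the gene, chr12:53247840-53248977, had 6 and 4 reads in PV, 13 and 13 in VIP, and 9 and 17 in SST, and VIP and SST overlapped (0.56 ± 0.435, edgeR adjusted p = 0.296). The most read region, chr12:53252391-53253144, lies over the start of other transcripts 4.1 kb further in and had 42 and 29 reads in PV, 17 and 11 in VIP, and 18 and 9 in SST. Its difference for VIP was -0.77 ± 0.408 (edgeR adjusted p = 0.127). It was the 1 region lower in SST than in PV, at -1.51 ± 0.435 (edgeR adjusted p = 0.0397), and this was lost in DESeq2, without the filter and without PV replicate 1, PV replicate 2 or SST replicate 2, with adjusted p from 0.000469 to 0.508.

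Adarb2, a gene of 565882 bp at chr13:8202866-8768747 on the plus strand, had 126 regions and only the one over its start, chr13:8202402-8203634, could be tested. It had 52 and 34 reads in PV, 12 and 16 in VIP, and 42 and 29 in SST, and a peak was listed in all 6 samples (−log10 q of 30.1 to 43.3). Both VIP samples were below the other 4, with a difference of -1.61 ± 0.359 (log2, edgeR adjusted p = 0.00145), which missed the threshold without the filter (adjusted p = 0.0609, range over the alternatives 6.1e-07 to 0.0609). The RNA went the other way, at 1.68 per 10000 in Vip nuclei against 0.0621 in Sst and 0.0275 in Pvalb. Over all regions at coding starts 20.0% were higher and 17.3% lower in VIP. The promoter of this region is the one whose sequence was shown.

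None of the 287 elements screened in the virus library lay within 50 kb of a member. The only one whose nearest coding start was that of a member, GRE201 (chr13:78658114-78658811), lay 458357 bp from Nr2f1. It gave 191 viral UMIs over all nuclei, 1 in the Vip gate, 0 in Npy, 5 in Sst, 1 in Pvalb, 17 in excitatory nuclei and 10 in astrocytes. The other inhibitory gate had 23 in 699 nuclei, a mean of 0.0329 per nucleus against 0.00599 over all nuclei. How many nuclei and libraries held these 23 UMIs was not examined, and the means are not scaled to depth or viral load. They therefore do not show activity of the element in that gate.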

How the data were processed

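The authors deposited UMI counts per barcode and gene for 10 inDrops libraries, a table of ATAC-seq read counts in 323369 regions for 6 samples with a mean phyloP score per region, and peak lists per sample with −log10 q-values. Per the labels and the study's methods, ATAC reads were trimmed with Trimmomatic 0.33 and aligned with Subread 1.4.6-p3, peaks came from HOMER and MACS2, and counts from featureCounts. The authors' specificity values and the 0 or 1 columns were not used. Viral columns and the column Vector were left out of UMI totals, and no doublet caller was run: nuclei with 2 UMIs in several marker lists (1224) had no gate. A level is UMIs per 10000 non-viral UMIs summed over a gate, with exact Poisson intervals, and ratios have exact conditional binomial intervals (95%). For a bound, a level of 0 in the lower gate was replaced by 3 UMIs over that gate (for the mean of 2 gates both at 0, 3 UMIs in each). The count of the other gate was taken as exact, so exact intervals reach below such a bound. Of 25579 barcode names, 5368 occurred in several libraries and were kept as separate nuclei.

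ATAC counts of all 6 samples were fitted together with edgeR 4.0.16 (R 4.3.3; TMM, filterByExpr, quasi-likelihood test, Benjamini-Hochberg over 40338 regions), tested on simulated data. Genes came from GENCODE vM21 (GRCm38). Named regions of each gene were the most read one over an annotated transcript start, that with the lowest p and that with the most reads. Any other is named as chosen after its values were seen, as a further start or as a region that overlaps one already named. For Nr2f1 the region with the lowest p among those higher in VIP was added. These others were not set by the rule. Members, companion lists and tests were chosen with earlier results of these data known. Alternatives were DESeq2 1.42.0, RLE scaling, no filter, each sample left out, the replicate block, other windows, gate limits, depths and weights. Python 3.11.15 with NumPy 2.4.6, SciPy 1.17.1, pandas 2.3.3 and matplotlib 3.10.9 did the rest.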

Additional observations from a re-analysis of the deposited data

Results flagged for a closer look

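Of 12 levels of a gene with at least 20 UMIs in the Vip, Npy, Sst or Pvalb gate, 2 had a library far from the other 9 by Dixon's test, which by chance marks about 1 in 20 groups. Prox1 in the Vip gate stood at 8.385 UMIs per 10000 in library 5 of set 2 (19 UMIs), with a gap of 0.530 of the whole range, and Nr2f2 in the Npy gate stood at 3.256 in library 5 of set 1 (8 UMIs), with a gap of 0.620. Both levels are given with and without that library above, and the cause was not tested.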

How the results depend on the processing

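Of 166 recomputed log2 ratios between gates, 155 moved by less than their counting interval and 11 by more. Those 11 were Nr2f1 in Npy (0.32 with 1 marker UMI per gate), Nr2f2 in Vip (3.08 with 3 marker UMIs, 3.12 with every nucleus weighted equally), Nr2f2 in Npy (0.98 weighted equally, 0.94 thinned to 300 UMIs), Prox1 in set 1 alone (at least 3.89 in Vip and 2.39 in Npy, bounds because the Sst and Pvalb gates had no UMI), Nr2f1 in Sst over Pvalb (1.34 in set 1, 0.18 in set 2) and, in set 2 alone, Npas3 in Vip (1.26) and in Sst over Pvalb (4.12). Npas3 in Npy, 0.23 as reported and under 2-fold, was -0.21 with 3 marker UMIs and -0.09 in set 1 alone, and Npas1 in Npy, a bound of at most 0.30, was -0.96 with 1 marker UMI. The bound for Npas1 in Sst over Pvalb fell from 1.05 to -0.04 and -0.11 within the library sets, where it gives no direction. Counting the column Vector, an alternative chosen after seeing the data, moved none beyond its interval.

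Near the genes, regions higher in VIP numbered 29 of 51 where the nearest coding start was the member's, and 20 to 26 with 1 sample left out. Regions lower in VIP numbered 2 in DESeq2, 1 with no filter and 3 to 6 with 1 sample left out, 3 of them without VIP replicate 2. For SST against PV the 1 higher became 0 with no filter, 2 by the nearest start and 1 to 2 with 1 sample left out, and the 1 lower became 0 in DESeq2, with no filter and at an adjusted p of 0.01, 2 by the nearest start and 0 to 3 with 1 sample left out. Over all regions, VIP higher ran from 7303 to 15170 (the most without SST replicate 2) and VIP lower from 5064 to 11813 (the fewest without VIP replicate 2) with 1 sample left out, and VIP lower numbered 5038 in DESeq2 and 2985 with no filter. SST higher than PV ran from 469 (without PV replicate 1) to 4961 (without SST replicate 1) and lower from 337 to 3615 for the same samples, with 228 and 183 in DESeq2. With no filter edgeR called 0 and 0, with 11248 and 9441 at an unadjusted p under 0.05. Causes of these changes were not tested.

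Same-numbered samples of the 3 classes shared no deviation (r of 0.0233, -0.0366 and 0.0297), so the numbers do not pair them. With the replicate block the counts over all regions were 9891 and 9250 for VIP and 1244 and 1313 for SST, and near the genes 19, 6, 1 and 1. Of 130 values each for the named regions, 125 for VIP and 119 for SST against PV stayed on their side of the threshold, and none changed sign past it.

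The limits are those of 2 mice in 1 RNA sample with a median of 713 UMIs per nucleus, at which Sp8 (28 UMIs over the gates) and Npas1 (25 UMIs) give wide intervals, and of 2 ATAC samples per class, in which all but 39 of 361 regions near the genes had too few reads to test.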
